A study of Mus musculus with 29 samples.

Results

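The complement genes described here are 10 liver genes that encode the mannose-binding lectins and complement proteins around them. They are Mbl1, Mbl2, Masp1, Masp2, C2, C3, C4b, Cfb, C8a and C9. Each was found as 1 row of the deposited table of gene counts, by matching its Ensembl identifier to its symbol, and the 10 rows were taken from 54532 in all. The matching itself used no measured value, but the genes were chosen with earlier results of these data known.

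The study asked what a SUMO switch on Prox1 does in the liver. Prox1 is a homeobox protein that controls genes in hepatocytes, and SUMO is a small modifier joined to lysines of its targets. K556R is a knock-in allele that changes a lysine of Prox1 so that SUMO cannot be attached there. The livers came from male mice on chow until 8 weeks of age, when expression of the hepatic K556R protein was induced through Cre. All groups then ate a diet of 45% fat and 20% fructose for 18 weeks, and livers were collected between ZT 15 and 17. There were 8 refed K556R livers, 6 refed WT livers, 7 fasted K556R livers and 8 fasted WT livers, or 15 K556R and 14 WT livers, and the labels place each in batch 1 or batch 2. The labels name the carriers Cre and the others Ctrl, and the sources used here do not say which promoter drives Cre, whether the Ctrl mice carry the knock-in allele, or what the batches are. Nothing beyond the labels says that each library is a separate mouse, so the p-values reflect the spread among libraries, which may be technical.

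Complement is a cascade of plasma proteins that marks and lyses microbes and clears damaged cells, and hepatocytes secrete most of its soluble components. Mannose-binding lectins recognise sugar patterns and, with their bound serine proteases, start the lectin pathway, which shares its next steps with the antibody-triggered classical pathway. Both pathways and the alternative pathway, which amplifies them, build an enzyme that cleaves C3, and the cascade ends with the membrane attack complex. Many complement genes also belong to the acute-phase response, the change in liver secretion during inflammation.

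Mice, unlike humans, make both mannose-binding lectins, MBL-A from Mbl1 and MBL-C from Mbl2. Because these genes belong to the same family and differed in the measurements below, the 250 bases before the start of each are shown, from RefSeq promoters on GRCm38.p6. The Mbl2 sequence lies at chr19:30232678-30232927 and the Mbl1 sequence at chr14:41151206-41151455, both on the plus strand. Capitals mark the 30-base stretch in which they are most alike, without gaps.
Mbl2: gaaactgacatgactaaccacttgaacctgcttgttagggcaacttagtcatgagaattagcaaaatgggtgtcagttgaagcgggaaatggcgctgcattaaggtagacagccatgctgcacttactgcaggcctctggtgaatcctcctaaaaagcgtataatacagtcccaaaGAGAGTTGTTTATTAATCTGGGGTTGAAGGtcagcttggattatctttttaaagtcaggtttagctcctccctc
Mbl1: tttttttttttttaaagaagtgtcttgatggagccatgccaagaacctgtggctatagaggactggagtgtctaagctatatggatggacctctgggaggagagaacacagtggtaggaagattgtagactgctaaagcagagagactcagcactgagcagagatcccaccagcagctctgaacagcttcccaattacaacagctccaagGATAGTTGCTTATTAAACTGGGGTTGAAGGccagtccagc
The stretches matched at 27 of 30 bases, at -74 to -45 of Mbl2 and -40 to -11 of Mbl1, counted back from the start. For the other 14 combinations of the 6 promoters that were matched (Mbl1, Mbl2, Masp2, C3, C8a and C9), the best 30-base stretch had 17 to 20 identical bases. On either strand, the interferon-stimulated response element core (TTTC, any 2 bases, TTTC) had 0 matches in the 6 promoters and was found in 2.98% of 32851 RefSeq promoter windows of the same length. The GAS motif TTCNNNGAA was found in Masp2 and C8a, and in 7.02% of all windows. The pattern TTNCNNNAA was found in Mbl2, Masp2 and C3 (32.9% of all windows), with the Masp2 match on the same bases as its GAS match. It was searched as a C/EBP motif but is not the C/EBP consensus, so its matches do not mark C/EBP sites. The kappaB motif (GGG, any 5 bases, CC) had 4 matches in C3, the first overlapping the second, and was in 45.8% of all windows. The HNF1 motif (GTTAAT, any base, ATTAAC) had 0 matches in these 6 and was in 0.009% of all windows. A match of letters is not a bound site.

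The 29 libraries held 14385218 to 27278251 gene counts, and 15603 genes had enough counts to test, all 10 complement genes among them. Prox1 itself was at 150 ± 25.5 CPM, the counts scaled to a common library size, in refed K556R livers and 164 ± 22.7 in refed WT livers, and at 186 ± 12.3 in fasted K556R and 174 ± 13.0 in fasted WT livers (SD, n = 8, 6, 7 and 8). Gene counts do not separate the K556R from the WT transcript, so Prox1 does not check the genotype labels. The hepatocyte markers, Alb and 7 others, were present in every group, with a summed level of 61781 to 110271 CPM. Batch 2 and batch 1 differed at 3442 of 15603 genes, or 22.1%, by edgeR's quasi-likelihood test with a Benjamini-Hochberg adjusted p below 0.05, the rule for a call throughout.

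Per length of exon, C3, on which all pathways converge, was the most abundant of the 10 at 973 ± 137 CPM per kilobase (SD, n = 29). C4b, which makes complement C4, had 334 ± 42.4 and Mbl2 271 ± 58.1 CPM per kilobase. C8a, C9 and Mbl1 were close together at 122 ± 48.5, 115 ± 39.2 and 105 ± 21.5 CPM per kilobase, differences smaller than the spread between livers. Masp2 followed at 56.3 ± 4.80, Masp1 at 15.4 ± 1.09, C2 at 8.07 ± 1.81 and Cfb at 3.36 ± 0.813 CPM per kilobase. The order depends on the annotated exon lengths, which for Masp1 come to 9833 bases. Before division by length, Masp1 averaged 152 CPM and Mbl1 166 CPM. The places of Masp2, C2 and Cfb rest further on the annotation, because some exons are shared between genes. Of the exon bases of Cfb, 79.5% are also annotated to Gm20547, a protein-coding gene on the same strand that was listed at 0 in every library, as are 42.8% of those of C2. Of the exon bases of Masp2, 54.9% overlap Tardbp on the opposite strand. With all counts of a gene divided by its unshared length, Masp2 had 125 ± 10.6, Cfb 16.4 ± 3.97 and C2 15.2 ± 3.40 CPM per kilobase, which puts Masp2 beside C8a and the other 2 beside Masp1. C4b also has a near-identical neighbour, C4a, so reads may be split between them.

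**Figure D1:**
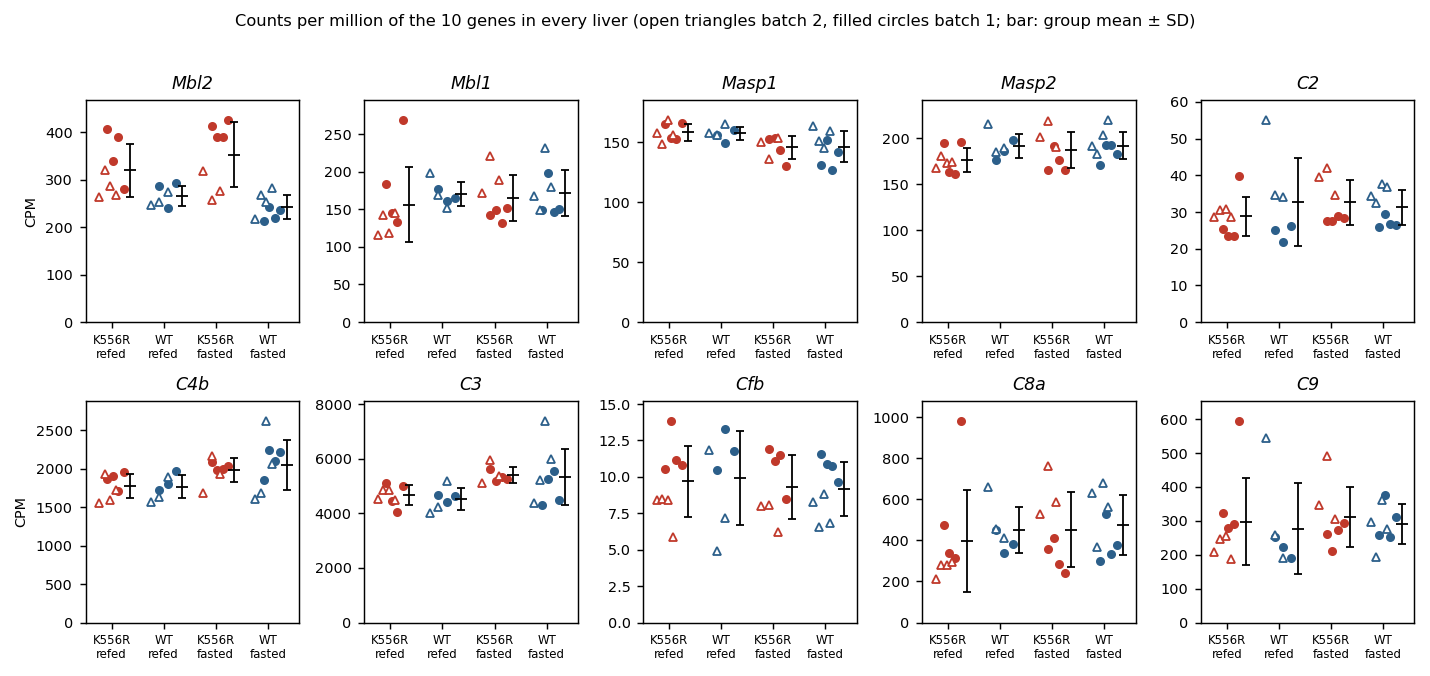
Each panel shows 1 gene, with CPM on the vertical axis and 1 point per liver in the 4 groups; open triangles are batch 2, filled circles batch 1, and bars the group mean ± SD. Fasted K556R livers of batch 1 stand at 391 to 425 CPM of Mbl2, above every WT liver, while the other 9 genes have overlapping groups.

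Mbl2 was the complement gene that differed between the genotypes. It lies at chr19:30232942-30239687 (mm10, plus strand, ENSMUSG00000024863). In fasted livers its level was 258 to 425 CPM in K556R (median 391, n = 7) and 214 to 283 CPM in WT (median 239, n = 8). In refed livers it was 264 to 407 CPM in K556R (median 304, n = 8) and 240.1 to 292 CPM in WT (median 263, n = 6). The upper livers of each K556R group were above all WT livers, and the lower ones overlapped them. In a bulk sample, fewer or more hepatocytes cannot be told apart from less or more RNA per hepatocyte.

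Mbl2 was higher in K556R than in WT fasted livers by 0.51 on the log2 scale (SE 0.098, 95% interval 0.31 to 0.72, 1.43-fold, edgeR quasi-likelihood adjusted p = 0.0316). It was the single complement gene called of 10, where 16 of 15603 genes, or 0.103%, were called (0.0833% higher), and it ranked 7th of all genes by p. Averaged over both feeding states the difference was 0.39 (SE 0.071, 95% interval 0.24 to 0.53, 1.31-fold, edgeR adjusted p = 0.00351), again for 1 of 10 genes, where 194 genes, or 1.24%, were called (0.628% higher). In refed livers it was 0.26 (SE 0.10, 95% interval 0.05 to 0.47, edgeR adjusted p = 0.480), and no gene of 15603 was called there, or 0%, though 1319 had an unadjusted p below 0.05. The genotype difference was 0.25 smaller in refed than in fasted livers (interaction -0.25, SE 0.14, 95% interval -0.54 to 0.04, edgeR adjusted p = 1.00), so the states were not shown to differ. The fasted call is narrow, since it was lost in 8 of 29 fits that left out a liver (adjusted p 0.00759 to 0.131 over the 29). It was also lost without the batch term (edgeR adjusted p = 0.0840) and with a block for the repeat number within each batch. The call over both states held in all 29 fits that left out a liver (0.00136 to 0.0106).

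The Mbl2 values are given by batch, since the fitted differences were larger in batch 1, although the test between the batches did not pass. In batch 2, fasted K556R livers had 318, 258 and 275 CPM and fasted WT livers 217, 268, 253 and 283 CPM. In batch 1, fasted K556R livers had 412, 391, 391 and 425 CPM and fasted WT livers 214, 243, 220.0 and 235 CPM. The groups overlapped in batch 2 and were apart in batch 1, where 0.216% of 15262 genes were called. Among refed livers of batch 2, Mbl2 was at 264, 321, 287 and 268 CPM in K556R and at 247, 253 and 274 CPM in WT. Among refed livers of batch 1, it was at 407, 339, 389 and 280.3 CPM in K556R and at 286, 240.1 and 292 CPM in WT. Both refed sets overlapped, with 1 K556R liver of batch 1 below the WT high.

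Fitted within batches, the fasted difference was 0.17 (edgeR adjusted p = 0.798) in batch 2 and 0.83 (0.00401) in batch 1. For the mean of both states it was 0.16 (edgeR adjusted p = 0.550) in batch 2 and 0.60 (0.00103, with 0.819% of genes called) in batch 1. The fasted difference was 0.67 lower in batch 2 than in batch 1 (SE 0.15, unadjusted p = 0.000137), but no gene passed this test of the batches over 15603 genes (0%), and the edgeR adjusted p for Mbl2 was 0.635. Genotype held 45.0% of the sum of squares of Mbl2 over the 29 livers, batch 11.5% and feeding 0.562%. Batch was entered first, then feeding, then genotype, and with groups of unequal size such shares depend on that order. For none of the other 9 did genotype hold more than 9.59%.

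**Figure D2:**
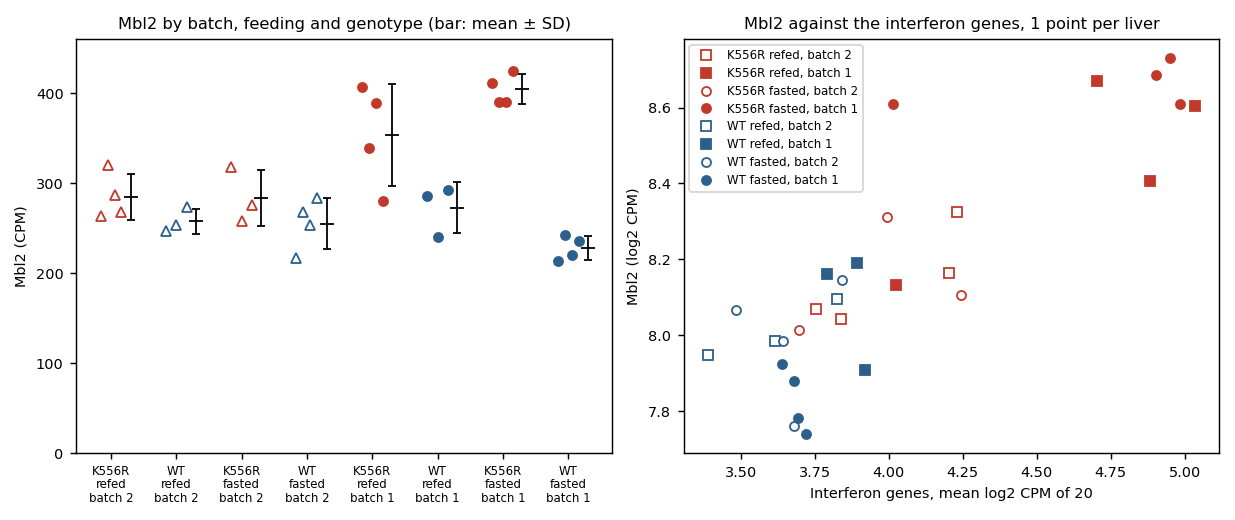
The left panel shows Mbl2 in CPM in each group of each batch (1 point per liver, bars mean ± SD), and the right panel sets log2 CPM of Mbl2 against the mean log2 CPM of 20 interferon genes. Fasted K556R livers of batch 1 had 404 ± 16.8 CPM and fasted WT livers of batch 1 had 228 ± 13.4 CPM, and in batch 2 the group means lay between 255 and 285 CPM.

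Interferon-induced genes moved with the genotype in the same livers. In fasted livers all 20 genes of the interferon list had positive differences (median 0.79 on the log2 scale). Of the 20, 5 were called higher in K556R, where 0.0833% of all genes were. The mean log2 CPM of the list ranged from 3.70 to 4.98 in fasted K556R livers and from 3.48 to 3.84 in fasted WT livers. In refed livers it ranged from 3.75 to 5.03 in K556R and from 3.39 to 3.92 in WT. All 20 refed differences were positive and 0 were called, where 0% of all genes were. Averaged over both states all 20 were positive (median 0.77). Of these, 16 were called higher in K556R, where 0.628% of all genes were. The median fasted difference of the list was 0.37 in batch 2 and 1.22 in batch 1, the same order of batches as for Mbl2. The fasted K556R liver numbered 2 in batch 1 had the lowest interferon mean of its group and batch, 4.02. Its Mbl2 was 391 CPM, beside 412, 391 and 425 CPM in the livers numbered 1, 3 and 4. The refed K556R liver numbered 4 in batch 1 was lowest in its group and batch for both, at 4.02 and 280.3 CPM. Between livers of the same group and batch, the correlation of Mbl2 with the interferon mean was 0.49 (Spearman 0.38, permutation p = 0.024 and 0.0703, n = 29, adjusted p = 0.12 over 30 relations, two-sided). It was 0.50 in batch 2 and 0.50 in batch 1, and 0.35 without the 2 livers farthest from the median. The 11 Kupffer cell and macrophage markers had a summed level of 243 to 739 CPM in fasted K556R and 249.6 to 919.7 CPM in fasted WT livers, and all 11 had positive differences with 0 called. Their median fasted difference was 0.27 in batch 2 and -0.05 in batch 1. The part of these genes in the Mbl2 difference was not tested.

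Mbl1, the other mannose-binding lectin, did not follow Mbl2. It was at 115 to 268 CPM in refed K556R (median 143) and 152 to 198 in refed WT livers (median 167), and at 131 to 221 in fasted K556R (median 152) and 147 to 231 CPM in fasted WT livers (median 159). The groups overlapped in both states. Averaged over both states, Mbl1 differed by -0.09 between K556R and WT (SE 0.10, edgeR adjusted p = 0.741). In the fasted state its 95% interval of -0.35 to 0.24 lay below that of Mbl2.

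The lectin-bound proteases had narrow spreads. Masp1 encodes a protease that activates MASP-2, and its gene also makes other products that gene counts pool. It differed between K556R and WT fasted livers by -0.00 (95% interval -0.11 to 0.10) and between refed livers by 0.01 (-0.10 to 0.12). Masp2, whose product cleaves C4 and C2, differed by -0.03 (-0.16 to 0.09) in fasted and by -0.12 (-0.25 to 0.01) in refed livers, with edgeR adjusted p = 0.921 and 0.640.

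The genes of the C3-cleaving enzymes also gave no genotype call. C2, the protease subunit shared by the classical and lectin pathways, differed by -0.03 between K556R and WT averaged over both states (SE 0.082). C4b differed by -0.02 (SE 0.059), C3 by 0.04 (SE 0.063) and Cfb, the protease subunit of the alternative pathway, by -0.02 (SE 0.092), with edgeR adjusted p between 0.835 and 0.930 for these 4 genes. The membrane attack components were more variable. C8a, a chain of C8, differed by -0.10 (SE 0.20, edgeR adjusted p = 0.863) and C9, which forms the pore, by 0.11 (SE 0.16, edgeR adjusted p = 0.809). The 10 genes had a median difference of -0.02 for the mean of both states, against 0.00 for all genes tested.

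**Figure D3:**
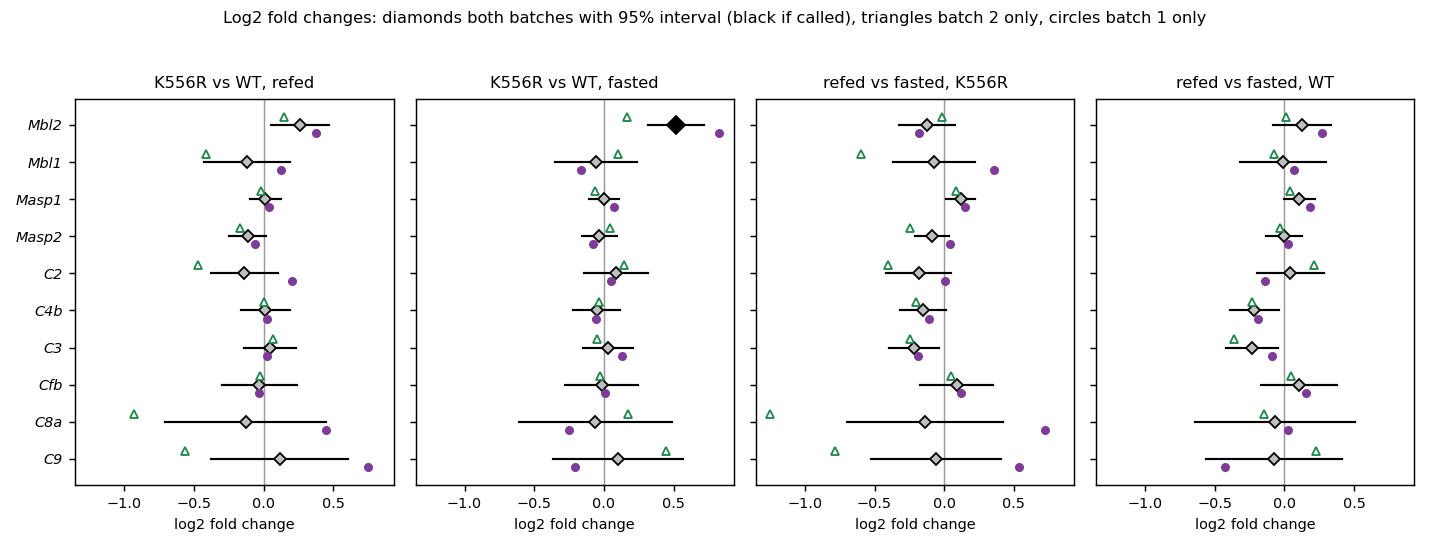
Log2 fold changes of the 10 genes in 4 contrasts, with diamonds for both batches and lines for the 95% interval, triangles for batch 2 and circles for batch 1. The Mbl2 diamond of fasted K556R against WT, at 0.51, is the black one and marks the call, the other diamonds are grey, and C8a in K556R livers shows its batches on opposite sides of 0, at -1.25 in batch 2 and 0.72 in batch 1.

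Refeeding gave called differences in C3, C4b and Masp1 when the genotypes were averaged, and the other 7 genes had edgeR adjusted p of 0.496 to 0.991. Within K556R livers 0 of the 10 genes were called, where 2397 of 15603 genes, or 15.4%, were called, and 2 of the 10 had an unadjusted p below 0.05. Within WT livers 0 of 10 were called, against 10.7% of all genes, also with 2 below an unadjusted 0.05. Averaged over the genotypes, a contrast added after the results were seen, 3 of 10 were called, against 4001 genes or 25.6% (12.9% higher and 12.8% lower), a share near that of all genes.

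C3 was at 4049.6 to 5128 CPM in refed K556R (median 4691) and 4029 to 5196 in refed WT livers (median 4535), and at 5111 to 5947 in fasted K556R (median 5352) and 4302 to 7393 CPM in fasted WT livers (median 5244). The refed and fasted ranges overlapped, in K556R livers only between 5111 and 5128 CPM. Averaged over the genotypes, C3 fell by 0.22 on refeeding (SE 0.063, 0.857-fold, edgeR adjusted p = 0.00842). The difference was -0.22 in K556R and -0.23 in WT livers (edgeR adjusted p = 0.0934 and 0.111). C4b was at 1559 to 1952 CPM in refed K556R (median 1793) and 1571 to 1965 in refed WT livers (median 1761), and at 1688 to 2165 in fasted K556R (median 1992) and 1604 to 2621 CPM in fasted WT livers (median 2079). It fell by 0.18 (SE 0.059, 0.881-fold, edgeR adjusted p = 0.0207), with overlapping groups. Masp1 rose by 0.11 (SE 0.038, 1.08-fold, edgeR adjusted p = 0.0285), and its levels were 148 to 168 CPM in refed K556R, 149 to 165 in refed WT, 130 to 154 in fasted K556R and 127 to 163 CPM in fasted WT livers. The Masp1 call was lost with no low-count filter (edgeR adjusted p = 0.112) and without the fasted K556R liver numbered 4 in batch 1 (edgeR adjusted p = 0.0518).

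Within batch 2 alone, where 18.2% of genes were called, C3 was at -0.30, C4b at -0.22 and Masp1 at 0.06 (edgeR adjusted p = 0.0487, 0.178 and 0.483), so C3 was called. Within batch 1 alone, where 17.4% of genes were called, they were at -0.14, -0.15 and 0.16 (edgeR adjusted p = 0.233, 0.105 and 0.0709), and 0 of the 3 were called. Batch 2 alone also called C8a at -0.70 and Mbl1 at -0.34 (edgeR adjusted p = 0.00412 and 0.0316), which were at 0.37 and 0.21 in batch 1 (edgeR adjusted p = 0.277 and 0.284). Of the acute-phase list, 17 of 20 genes were lower in refed livers averaged over the genotypes (median -0.29). Of these, 9 were called lower, where 12.8% of all genes were. The part of that response in the values of C3 and C4b was not tested.

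In K556R livers, C8a and Mbl1 were called lower on refeeding in batch 2, and their differences in batch 1 were positive but not called. C9 had differences of the same signs and was called in neither batch. In batch 2, C8a was at 214, 279.7, 279 and 297 CPM in refed K556R and at 528, 762 and 587 CPM in fasted K556R livers. In batch 1 it was at 477, 338, 313 and 982 CPM in refed K556R and at 361, 409, 285 and 239.7 CPM in fasted K556R livers. Refed livers were below fasted ones in batch 2 without overlap, and the groups overlapped in batch 1. The refed minus fasted difference of C8a was -1.25 (SE 0.20, edgeR adjusted p = 0.00128) in batch 2 and 0.72 (SE 0.30, edgeR adjusted p = 0.157) in batch 1. The corresponding values of Mbl1 were -0.59 (SE 0.14, edgeR adjusted p = 0.0137) in batch 2 and 0.36 (SE 0.17, edgeR adjusted p = 0.224) in batch 1. Those of C9 were -0.78 (SE 0.28, edgeR adjusted p = 0.0822) in batch 2 and 0.53 (SE 0.21, edgeR adjusted p = 0.134) in batch 1. For this contrast 12.5% of 15363 genes were called in batch 2 alone and 9.81% of 15262 in batch 1 alone.

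The test of the batches themselves, also added after the values were seen, called C8a at -1.93 (SE 0.40, edgeR adjusted p = 0.0113) and Mbl1 at -0.92 (SE 0.24, edgeR adjusted p = 0.0312), where 552 genes, or 3.54%, were called. C9 was at -1.28 (SE 0.38, edgeR adjusted p = 0.0543). C8a was called in all 29 fits without a liver. Mbl1 was called in 22 of 29 and was lost without, among others, the refed K556R liver numbered 4 in batch 1 (-0.67, edgeR adjusted p = 0.079), which had the highest C8a, C9 and Mbl1 of its group. In WT livers no gene passed this test (0%), and C8a was at -0.16 (edgeR adjusted p = 0.956). Pooled over batches, C8a differed by -0.14 between refed and fasted K556R livers (SE 0.27), a value that describes neither batch.

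The genotype comparison of refed livers uses the same refed K556R livers, so its values by batch are not independent of those above. In batch 2, C8a was at 214 to 297 CPM in refed K556R and 414 to 659 CPM in refed WT livers, which did not overlap, and the difference was -0.93 (edgeR adjusted p = 0.163, with 0.0456% of genes called). In batch 1 it was 0.44 (edgeR adjusted p = 0.707, with 0.0328% of genes called). For C9 the refed genotype difference was -0.56 in batch 2 and 0.75 in batch 1. The batches differed by -1.37 for C8a (SE 0.41), -1.31 for C9 (SE 0.39) and -0.67 for C2 (SE 0.21), and 0% of all genes passed, with edgeR adjusted p = 0.228, 0.226 and 0.239.

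Between the batches 2 of the 10 genes were called, Cfb and C2, a share near the 22.1% of all genes. Cfb was at 4.90 to 11.8 CPM in batch 2 and 8.49 to 13.8 CPM in batch 1, lower by 0.54 in batch 2 (SE 0.092, edgeR adjusted p = 4.13e-05), and batch held 58.0% of its sum of squares. C2 was at 28.6 to 55.0 CPM in batch 2 and 21.7 to 39.9 CPM in batch 1, higher by 0.40 in batch 2 (SE 0.082, edgeR adjusted p = 0.000586). None of the 8 other genes was called in this test, with Mbl2 at -0.18 (edgeR adjusted p = 0.0698).

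Genes of the complement system outside these 10 gave 0 genotype calls. Of 42 further genes, 41 were in the table and 39 were tested, and 0 were called between genotypes when fasted, when refed or on average. Of all genes tested, 0.103%, 0% and 1.24% were called in these contrasts, so 0 of 39 is near the share of all genes. An unadjusted p below 0.05 was found for 2, 2 and 3 of the 39, and DESeq2 likewise called 0. On average over the states, Cfd, the protease adipsin that activates factor B, was at -0.75 (SE 0.28, edgeR adjusted p = 0.196) and Clu, the regulator clusterin, at -0.13 (SE 0.053, edgeR adjusted p = 0.247). In fasted livers the smallest p belonged to C1rb at -2.49 (SE 0.995) and Cfd at -0.84 (SE 0.39), and in refed livers to C7 at 0.75 (SE 0.35) and Cd59a at -0.15 (SE 0.069), with edgeR adjusted p of 0.418 to 0.564. C1rb averaged only 0.833 CPM and was not tested in batch 1 alone. C7 averaged only 0.912 CPM, so all values of C1rb and C7 given here rest on few counts. On refeeding 3 of the 39 were called lower averaged over the genotypes, where 12.8% of all genes were. They were Clu by -0.20 (SE 0.053, edgeR adjusted p = 0.00583), C7, a chain of the membrane attack complex, by -0.67 (SE 0.23, edgeR adjusted p = 0.0300) and Serping1, the C1 inhibitor, by -0.21 (SE 0.076, edgeR adjusted p = 0.0408).

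Within each genotype 0 of 39 were called by edgeR on refeeding, against 15.4% of all genes in K556R and 10.7% in WT livers. An unadjusted p below 0.05 was found for 2 in K556R and 4 in WT livers. DESeq2 called 1 in K556R and 0 in WT livers. Clu and Serping1 had the smallest p in K556R livers, at -0.20 (SE 0.073) and -0.25 (SE 0.11), and Clu and C7 in WT livers, at -0.20 (SE 0.076) and -0.88 (SE 0.35), with edgeR adjusted p of 0.0674 to 0.108. For the interaction they were C1rb at 2.56 (SE 1.62) and Fcna, a ficolin, at -0.46 (SE 0.33), with edgeR adjusted p = 1.00. In batch 2 alone, refed K556R livers had 8 of the 39 called lower than fasted K556R livers, where 12.5% of all genes were called in either direction. The 8, named after their values were seen, were C4a at -2.45, C8b, which joins C8a in the C8 protein, at -1.80, C6 at -1.42, Hc, the gene of C5, at -0.61, Serping1 at -0.54, Cpn2 at -0.46, C1ra at -0.41 and Clu at -0.32. In batch 1 the values were 0.40 for C4a, 1.49 for C8b, 0.80 for C6, 0.27 for Hc, -0.01 for Serping1, 0.06 for Cpn2, 0.13 for C1ra and -0.09 for Clu, and 0 of these 8 were called.

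Between livers of the same group and batch, the 10 genes varied together to different degrees. The strongest relation was between Mbl1 and C8a (Pearson 0.87, Spearman 0.80, n = 29, two-sided permutation p = 3e-05 for each, adjusted p = 0.00135 over 45 relations), with 0.84 in batch 2, 0.90 in batch 1 and 0.81 without the 2 livers farthest from the median. C2 and C9 had 0.86 (Spearman 0.79, permutation p = 8e-05 and 0.00012, adjusted p = 0.0018), with 0.91 in batch 2, 0.82 in batch 1 and 0.75 without the 2 farthest livers. C3 and C4b had 0.81 (Spearman 0.70, permutation p = 0.00017 and 0.00163, adjusted p = 0.00255), with 0.91 in batch 2, 0.54 in batch 1 and 0.66 without the 2 farthest livers. Of 45 relations 11 had a permutation p adjusted to below 0.05, and none of the 11 involved Mbl2, Masp1 or Cfb. Mbl2 and C8a had -0.38 (Spearman -0.19, permutation p = 0.196 and 0.391, adjusted p = 0.442), with -0.08 without the 2 farthest livers. C3 and C4b also varied with the mean of the acute-phase list, at 0.77 and 0.81 (n = 29, permutation p = 2e-05 for C3 and 0.00014 for C4b, adjusted p = 0.0006 and 0.0021 over 30 relations). The Spearman values were 0.69 and 0.72 (permutation p = 7e-05 and 0.00022). Pearson values were 0.84 and 0.90 in batch 2, 0.59 and 0.54 in batch 1, and 0.68 and 0.73 without the 2 farthest livers. Levels of 1 library share its RNA, depth and scaling.

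The 5 genes whose deviations were most like those of Mbl2 among 10983 ranked genes were Cyp2c38 (0.81), Tnfrsf11b (0.78), Fmo1 (0.77), Igtp (0.75) and Maob (0.72), by Pearson correlation over 29 livers. Cyp2c38 and Fmo1 encode enzymes that oxidise foreign compounds, Tnfrsf11b encodes osteoprotegerin, Igtp an interferon-inducible GTPase and Maob a monoamine oxidase. Those most like C3 were C4b (0.81), Fga (0.77), Amt (0.77), Itih4 (0.75) and Serpina3n (0.75). Those most like C8a, a choice added after its values were seen, were C8b (0.91), Cyp7b1 (0.89), Serpina1e (0.89), Slc22a7 (0.88) and Adh6-ps1 (0.88).

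**Figure D4:**
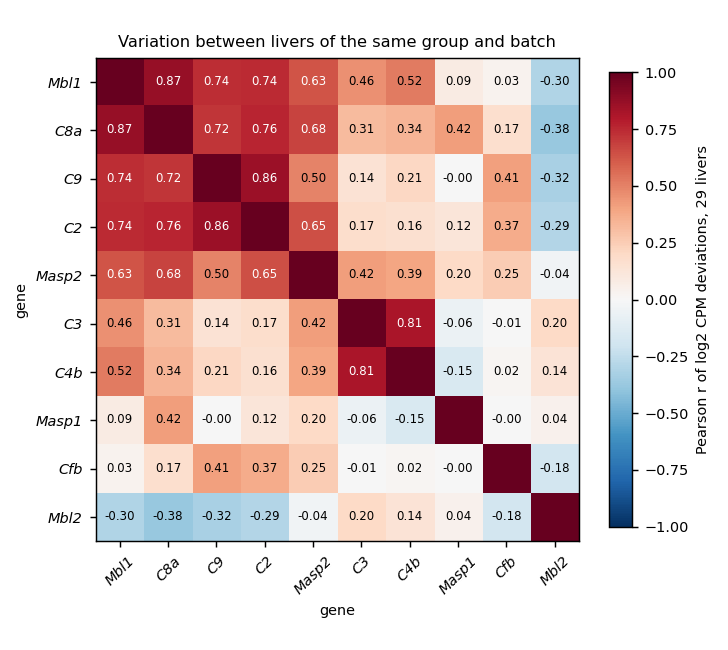
Pearson correlations between the 10 genes, on both axes, of the deviations of log2 CPM from the mean of each liver's group and batch (29 livers, colour scale from -1 to 1). Mbl1, C8a, C9 and C2 form a block of 0.72 to 0.87, C3 and C4b share 0.81, and Mbl2 is at -0.38 to 0.20 with the other 9.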

How the data were processed

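Each of the 29 libraries is poly-A RNA from liver, and the authors deposited 1 table of raw whole-number counts, with genes in rows and libraries in columns. Per the submitters' processing notes, the build was mm10 and the tools included TopHat, STAR, STAR-Fusion, HTSeq, edgeR and DESeq2. The gene annotation and the strand setting of the counting are not given in the sources used here, so overlapping genes and close paralogs are uncertain. Symbols, positions and exon lengths came from GENCODE M21 (GRCm38), and 123 identifiers had no match.

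The members, gene lists and tests were chosen with earlier results of these data known. Genes were kept by filterByExpr in edgeR 4.0.16 (at least 10 counts in enough libraries and 15 in total), so 15603 genes holding 99.9% of counts were tested. Libraries were scaled by TMM, and edgeR's quasi-likelihood model had 1 coefficient per group and a batch term. Adjusted p is Benjamini-Hochberg over all genes tested, called below 0.05. CPM use TMM-scaled sizes, and a prior count of 2 was added before log2 CPM was taken. Standard errors follow from the F statistic, and the 95% intervals are not adjusted. Copies made by PCR are included in the counts.

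The 10 members are named in every contrast, other complement genes if called, or otherwise the 2 with the smallest p. The feeding contrast over both genotypes, the batch test of feeding effects and the likeness to C8a were added after results were seen. Correlations used 100000 permutations of livers within group and batch. The procedure was checked on simulated data. Alternatives were DESeq2 1.42.0 and its size factors, no filter, no batch term, each batch alone, a replicate block and leaving out each library. Software was R 4.3.3 and Python 3.11.15.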

Additional observations from a re-analysis of the deposited data

Results flagged for a closer look

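C9 had 595 CPM in the refed K556R liver numbered 4 in batch 1, where the other 7 livers of its group had 188 to 323 CPM. It had 544 CPM in the refed WT liver numbered 1 in batch 2, where the other 5 had 189 to 259 CPM. In both groups the gap to the nearest liver was large for the range of the group (Dixon's test on log2 CPM), and these were 2 of 40 sets examined, where chance gives about 1 in 20. The same livers had the highest C8a of their groups, at 982 and 659 CPM, and the highest C2, at 39.9 and 55.0 CPM.

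The response to refeeding in K556R livers differed between batch 2 and batch 1 by -1.93 for C8a and by -0.92 for Mbl1 on the log2 scale, each past the edgeR test of the batches (adjusted p = 0.0113 and 0.0312). Without the refed K556R liver numbered 4 in batch 1 the difference was -1.44 for C8a (edgeR adjusted p = 0.0221) and -0.67 for Mbl1 (edgeR adjusted p = 0.079). The batch difference in WT livers was -0.16 for C8a and -0.13 for Mbl1.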

How the results depend on the processing

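The genotype call of Mbl2 over both feeding states held with DESeq2's size factors, DESeq2's Wald test, no low-count filter, no batch term, batch 1 alone and the replicate block, and was lost in batch 2 alone, which called 0 members. In fasted livers the count of called members fell to 0 without the batch term (Mbl2 at 0.55, edgeR adjusted p = 0.0840), in batch 2 alone and with the replicate block (0.53, edgeR adjusted p = 0.144). Leaving out each library gave 0 to 1 for fasted livers. Mbl2 lost that call, at 0.47 to 0.52, without the fasted K556R livers numbered 1, 3 or 4 of batch 1 or 1 of batch 2, or without any of the 4 fasted WT livers of batch 1. On refeeding, batch 2 alone called 2 members in K556R livers (C8a and Mbl1), and leaving out each library gave 0 to 1. The call was C2 at -0.31 (edgeR adjusted p = 0.0141) without the refed K556R liver numbered 4 of batch 1, or C3 at -0.21 (edgeR adjusted p = 0.0485) without the fasted WT liver numbered 3 of batch 2. Over both genotypes 3 members were called, 0 in batch 1 alone, 3 in batch 2 alone (C3, C8a and Mbl1, without C4b and Masp1), 2 with no filter and 2 to 3 when leaving out each library. Masp1 was lost without the fasted K556R liver numbered 4 of batch 1 (edgeR adjusted p = 0.0518) and with no filter (edgeR adjusted p = 0.112). The batch test of the genotype difference was passed by 0% of all genes in the main fit. For this test the count of members was 2 with no filter (C8a at -1.36 and C9 at -1.30 in refed livers, edgeR adjusted p = 0.0395 and 0.0382). It was 0 to 1 when leaving out each library (C9, without the refed WT liver numbered 3 of batch 2). For the batch test of the feeding response in K556R livers the count was 1 to 3 when leaving out each library. Mbl1 was lost without any of 7 libraries (-0.67 to -0.93), the fasted K556R livers numbered 1 and 3 of batch 1 and 2 of batch 2 and the refed K556R livers numbered 1 and 4 of batch 1 and 1 and 3 of batch 2, and C9 was gained without any of 7 others. Other complement genes called on refeeding over both genotypes numbered 1 to 5 when leaving out each library, 5 in batch 2, 1 in batch 1 and 1 with no filter. Within K556R livers they numbered 1 with DESeq2, 8 in batch 2 and 0 to 3 when leaving out each library, and within WT livers 0 to 1. The cause of each change was not tested, and a fit to 1 batch has fewer libraries. For fits without the filter or without 1 library, the share of all genes called is not given here. The counts of called genes under those settings therefore have no share to be set against. No called value changed sign. Differences that were not called did so for 27 of 70 values in batch 1, 11 in batch 2, 7 with the replicate block and at most 2 under each of the other 4 settings. When leaving out each library they did so for 146 of 2030 values, which came from 36 of the 70 differences. Over 40 same-number combinations within a batch the correlation of deviations was -0.39 to 0.36 (median -0.03). Combinations of different numbers were not set beside them, so these values cannot decide whether repeat numbers pair the livers. The replicate block gave 0 members in fasted livers, 1 over both states and 3 on refeeding over both genotypes. Cfb had 81 to 337 counts a library, the fewest of the members, which limits its precision.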
